A study of Mus musculus with 21 samples.

Results

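The type I interferon-stimulated genes described here were 38 genes, named by symbol, of the 55450 genes in the table of counts. Each of the 38 symbols belonged to 1 row of the table, and the rule itself used no measured value. RNA was sequenced from left ventricular (LV) tissue of 21 male mice of strain 129S6/SvEv at 12 weeks of age. Mice heterozygous for the R403Q substitution in α-myosin heavy chain (Myh6+/R404Q in the labels) model hypertrophic cardiomyopathy and were compared with wild-type (WT) littermates. Control diet (CD) was given to 5 WT mice (WT-CD) and 7 mutant mice (R403Q-CD), and the same diet with 0.15 mg/g of empagliflozin (EMPA), an inhibitor of the renal sodium-glucose cotransporter SGLT2, was given to 4 mutant mice (R403Q-EMPA) and 5 WT mice (WT-EMPA). The mutation lies in the gene for the main ventricular myosin of the mouse and is carried by every cell, and the tissue was a mixture of cardiomyocytes and other cells, so more cells of a type and more RNA per cell cannot be told apart. The labels gave 16 weeks of diet, which is longer than the age of the mice. The study describes a brief, shorter treatment for hearts of this age, and the length of treatment is not used here.

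Type I interferons bind a receptor made of IFNAR1 and IFNAR2, whose kinases JAK1 and TYK2 pass the signal to transcription factors, STAT2 and IRF9 among them. These bind the interferon-stimulated response element in promoters and turn on a common set of genes. The products detect viral nucleic acids, block translation, degrade RNA or modify proteins with ISG15, and most are made at a low level without infection by macrophages, endothelial cells and other cells of the heart.

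The core of the response element, GAAANNGAAA, was looked for on both strands in the RefSeq promoters of GRCm38.p6, which run from 250 bases before to 50 bases after the start of a gene. Of the 38 genes, 27 were in the promoter table, and 14 of them (51.9%) held at least 1 match, against 1079 of all 27025 genes in the table (3.99%). A match describes the letters alone. The promoters shown are those of Isg15, with overlapping matches, of 3 neighbours of the IFIT family, and of Bst2 and Rsad2, with the matches in capitals, each read 5′ to 3′ on the strand of its gene.
Isg15, chr4:156200855-156200916, minus strand: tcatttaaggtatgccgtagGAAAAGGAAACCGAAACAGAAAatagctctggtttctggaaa
Ifit1, chr19:34640765-34640833, plus strand: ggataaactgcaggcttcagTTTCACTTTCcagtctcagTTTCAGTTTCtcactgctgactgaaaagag
Ifit3, chr19:34583353-34583436, plus strand: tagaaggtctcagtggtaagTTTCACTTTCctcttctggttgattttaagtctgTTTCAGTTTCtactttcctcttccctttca
Ifit3b, chr19:34607749-34607832, plus strand: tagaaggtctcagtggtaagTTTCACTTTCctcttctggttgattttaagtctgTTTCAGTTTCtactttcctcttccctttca
Bst2, chr8:71537567-71537622, minus strand: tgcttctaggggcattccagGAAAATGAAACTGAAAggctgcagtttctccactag
Rsad2, chr12:26456543-26456592, minus strand: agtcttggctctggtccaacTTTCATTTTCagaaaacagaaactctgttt
The Isg15 promoter held 3 matches between 78 and 57 bases before the start of the gene. The windows of Ifit3 and Ifit3b were identical over all 84 bases, and the first match lay 156 bases before the start of Ifit3 and 188 bases before that of Ifit3b.

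Several of the genes lie next to each other in GRCm38. The 4 IFIT genes stand on chromosome 19 between 34550694 and 34650009. Oas2, Oas3 and Oas1a lie on chromosome 5 between 120730333 and 120907521, and Oasl2 and Oasl1 lie on the same chromosome between 114896936 and 114937915. Ifi204 and Ifi203 are on chromosome 1 between 173747293 and 173942672. Parp9 (from 35938470) and Dtx3l (to 35939151) overlap end to end on opposite strands of chromosome 16. Ifi203 overlaps Mndal, Irf9 overlaps Rnf31, Irf7 overlaps Phrf1, Rtp4 overlaps Masp1 and Dhx58 overlaps an antisense gene, so that their counts are uncertain where the genes share sequence. Counts of near-identical neighbours such as Ifit3 and Ifit3b are uncertain, because read pairs that aligned to both were left out.

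Totals ran from 23491535 to 43539684 counts per mouse, so that 3 counts, used as the floor, correspond to between 0.0621 and 0.127 CPM, the usual scaling of a gene's counts to the TMM-scaled total of its mouse. Expression passed the filter on low counts for 37 of the 38 genes, and Oas3, with a mean of 0.139 CPM in WT-CD, did not and was not tested. R403Q-CD replicate 2 stood apart from all other mice: its Myh6 level was 17530 CPM against 28900 to 40800 in the other R403Q-CD mice, Nppa, the gene of atrial natriuretic peptide, was at 11000 CPM against 883 to 3826, and Col1a1, a collagen gene of fibroblasts, was at 681 CPM against 48.5 to 201. The main counts of the 37 genes below are given with and without this mouse, and those of other gene lists include it.

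Per kilobase of exon, the genes differed widely in level. In WT-CD, Ifi27 was highest with 15.6 CPM per kb, followed by Ifi35 with 12.7, Bst2 with 8.76, Lgals3bp with 6.81 and Xaf1 with 6.05. Some antiviral genes were far lower, with 1.70 CPM per kb for Ifit1, 2.29 for Isg15, 0.532 for Oas1a and 0.0532 for Mx1, a GTPase that traps viral nucleoproteins. Others were closer to the top, with 5.33 for Ifit2 and 4.92 for Eif2ak2. Mx1 and Zbp1 had as few as 1 and 3 counts in a mouse, so their values lie near the floor.

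The comparison of R403Q-CD with WT-CD asks how the mutation changed LV expression. Every one of the 37 genes tested had a higher fitted level in R403Q-CD than in WT-CD, with log2 fold changes from 0.19 (Sp100) to 1.63 (Zbp1) and a median of 0.56. Over all 17309 genes tested the median was 0.01, and 52.5% had a fold change above 0. At an unadjusted p under 0.05, 34 of the 37 genes (91.9%) were higher, against 11.8% of all genes. After Benjamini-Hochberg adjustment in edgeR's quasi-likelihood test none of the 37 passed 0.05, while 250 of all genes did (1.44%), and the closest was Usp18 with an adjusted p of 0.0526. DESeq2's Wald test called 12 of the 37, all higher, against 5.6% of all genes.

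**Figure D1:**
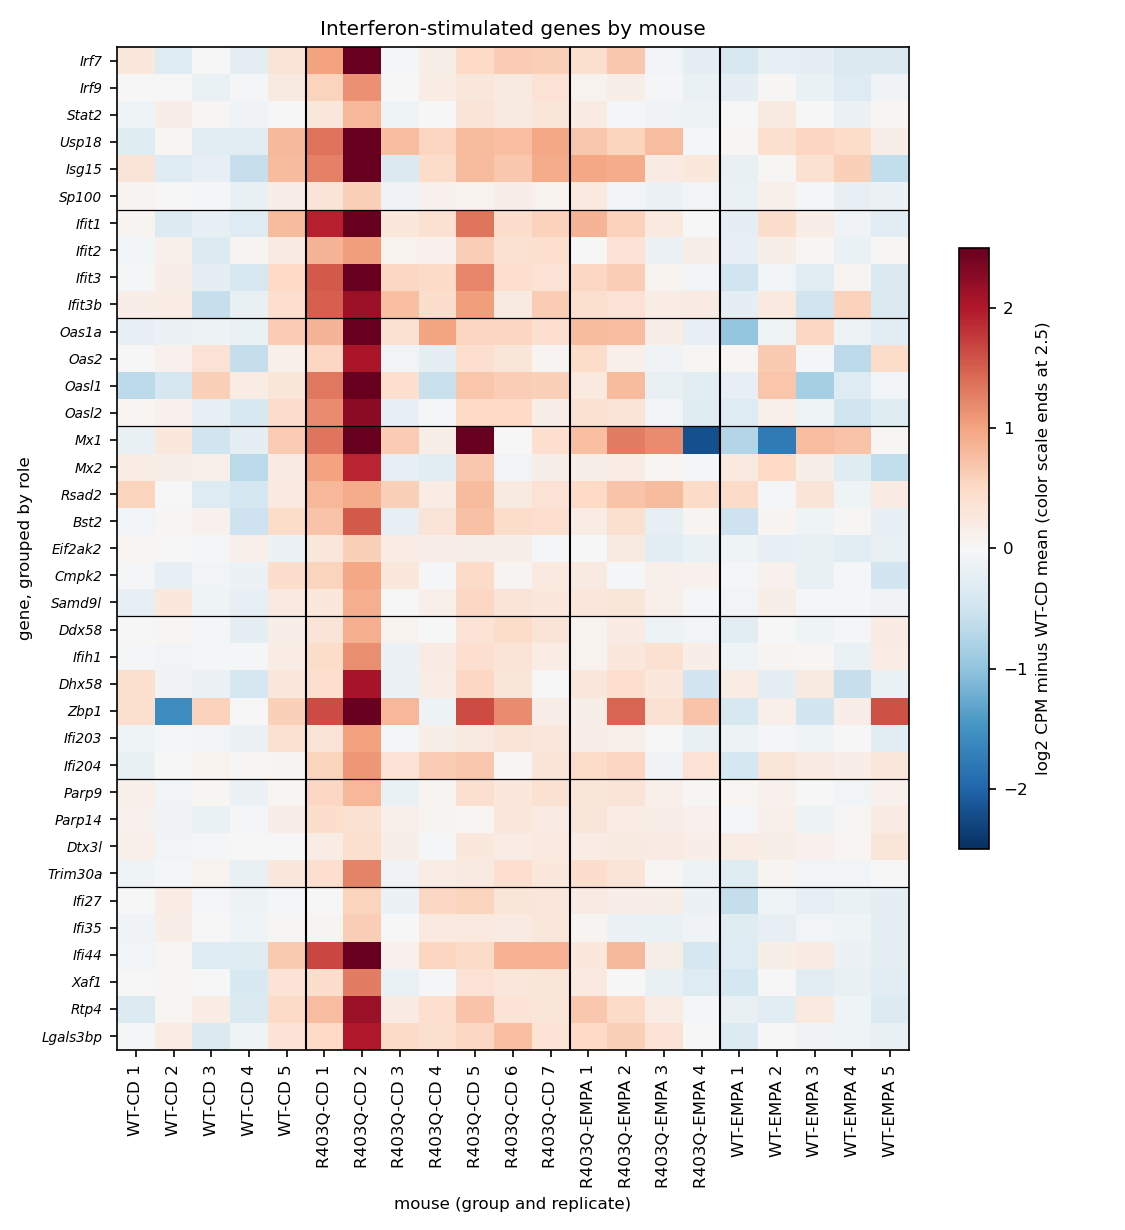
Log2 CPM of each of the 37 tested genes (rows, grouped by role) in each of the 21 mice (columns, grouped by genotype and diet), minus the mean of the 5 WT-CD mice, with no prior count. The column of R403Q-CD replicate 2 is the reddest, that of R403Q-CD replicate 1 is next, and the WT-EMPA columns are close to 0 or blue.

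The size of this difference rested on R403Q-CD replicate 2. The mean of the 37 genes, as log2 CPM minus the WT-CD mean, was 1.63 in this mouse, 0.74 in replicate 1 and between 0.13 and 0.59 in the other 5 R403Q-CD mice, against -0.21 to 0.30 in WT-CD. In replicate 2 all 37 genes lay above the highest WT-CD mouse, in replicate 1 it was 33, and in replicates 3 and 4 it was 8. Without replicate 2 all 37 genes still had a fold change above 0, but the median was 0.26, and 25 genes were higher at an unadjusted p under 0.05, against 8.7% of all genes. In edgeR Lgals3bp was then the single gene with an adjusted p under 0.05, which 1.41% of all genes had, while DESeq2 called 7 of the 37, against 3.88% of all genes. Without replicates 1 and 2 the median was 0.24, and 19 of the 37 genes were higher at an unadjusted p under 0.05, against 8.36% of all genes.

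**Figure D2:**
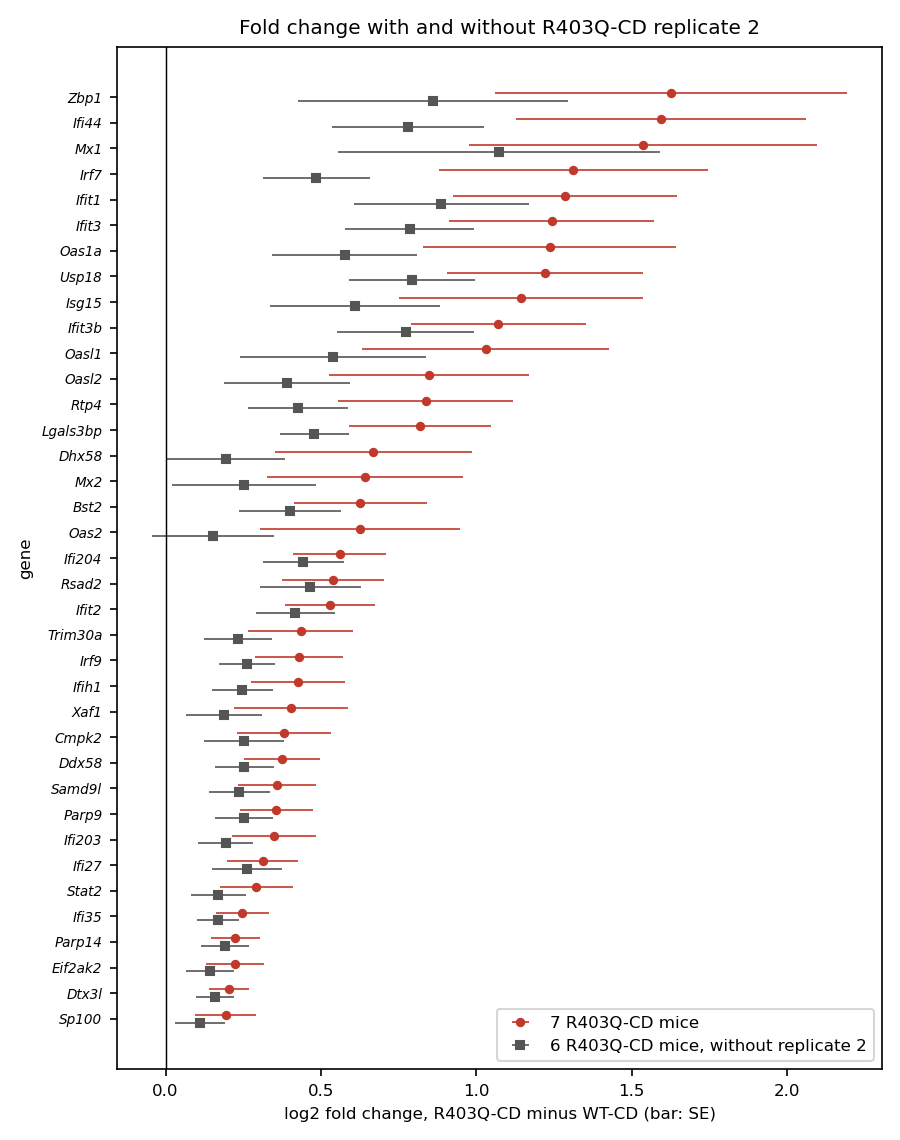
Log2 fold change of R403Q-CD against WT-CD for each of the 37 tested genes with its standard error (bars), from all 7 R403Q-CD mice (red circles) and from 6 mice without replicate 2 (grey squares). All points lie above 0, and without replicate 2 Irf7 moves from 1.31 to 0.49 and Ifi44 from 1.59 to 0.78.

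The signalling and transcription genes are the factors that carry the interferon signal and its feedback, and 5 of the 6 had an unadjusted p under 0.05, or 4 without replicate 2. In this role and those below all such genes were higher in R403Q-CD. Of all genes 11.8% were higher at that level, and 8.7% without replicate 2. Irf7, a transcription factor that amplifies interferon production, was at 7.23, 4.78, 5.92, 5.06 and 7.51 CPM in the WT-CD mice. In R403Q-CD its lowest level was 5.91, its median 9.08 and its highest, in replicate 2, 53.7 CPM. The groups overlapped, and the next highest R403Q-CD mouse had 12.0 CPM. The log2 fold change was 1.31 ± 0.43 (SE, adjusted p = 0.100, edgeR) and 0.49 ± 0.17 without replicate 2 (adjusted p = 0.159, edgeR). Sp100, a nuclear body protein with the highest CPM of this role before correction for length, ran from 24.9 to 31.9 CPM in WT-CD and from 26.9 to 42.9 in R403Q-CD (log2 fold change 0.19 ± 0.10, adjusted p = 0.259, edgeR, and 0.11 without replicate 2). Usp18, which removes ISG15 from proteins and dampens receptor signalling, was singled out after its values were seen. It was at 1.19, 1.53, 1.20, 1.23 and 2.57 CPM in WT-CD, with 2.57 in replicate 5, and at 2.13 or above in every R403Q-CD mouse. Its fold change was 1.22 ± 0.32 with all mice and 0.79 ± 0.20 (adjusted p = 0.0533, edgeR) without replicate 2, so that Usp18 missed the threshold by little in both fits. Stat2 and Irf9, partners in the transcription complex, had log2 fold changes of 0.29 and 0.43, which were 0.17 and 0.26 without replicate 2.

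The IFIT family binds foreign RNA. All 4 genes had an unadjusted p under 0.05, also without replicate 2. None passed adjustment in edgeR. All 4 did in DESeq2 and in edgeR with cage as a fixed factor, which called 5.6% and 6.52% of all genes. Without replicate 2 DESeq2 called Ifit2, Ifit3 and Ifit3b, against 3.88% of all genes. The fit with cage then called none of the 37, against 0.204%. Ifit1 was at 4.51, 3.40, 3.72, 3.43 and 7.46 CPM in WT-CD. In R403Q-CD it ran from 5.16 over a median of 6.44 to 26.4 CPM, and replicates 1, 2 and 5 were the 3 highest. WT-CD replicate 5 was above 4 of the 7 R403Q-CD mice, and the log2 fold change was 1.29 ± 0.36 (adjusted p = 0.0629, edgeR). Ifit2, with the highest CPM of the family, was at 19.9, 22.8, 16.4, 21.7 and 23.9 CPM in WT-CD and ran from 22.0 to 43.0 in R403Q-CD, with a median of 27.7. The groups overlapped in 2 R403Q-CD mice, and the log2 fold change was 0.53 ± 0.15 (adjusted p = 0.0609, edgeR). Ifit3 and Ifit3b, whose promoter windows are identical, had log2 fold changes of 1.24 and 1.07, and of 0.79 and 0.77 without replicate 2.

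The OAS family makes 2'-5'-linked oligoadenylate, which activates an RNA-degrading enzyme, or binds RNA without that activity. Of the 4 OAS genes tested, 3 were higher at an unadjusted p under 0.05, against 11.8% of all genes. Without replicate 2 Oas1a alone was, against 8.7% of all genes. Oas1a was at 0.848, 0.882, 0.895, 0.865 and 1.52 CPM in WT-CD, and from 1.27 over a median of 1.42 to 7.33 CPM in R403Q-CD. WT-CD replicate 5 lay within the R403Q-CD range, and the log2 fold change was 1.24 ± 0.41 (adjusted p = 0.101, edgeR) with all mice and 0.58 ± 0.23 without replicate 2. Oasl2, with the highest CPM of the family before correction for length, was at 6.18, 6.46, 5.23, 4.59 and 8.10 CPM in WT-CD and from 5.23 to 28.4 CPM in R403Q-CD. Its log2 fold change of 0.85 ± 0.32 became 0.39 ± 0.20 without replicate 2.

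**Figure D3:**
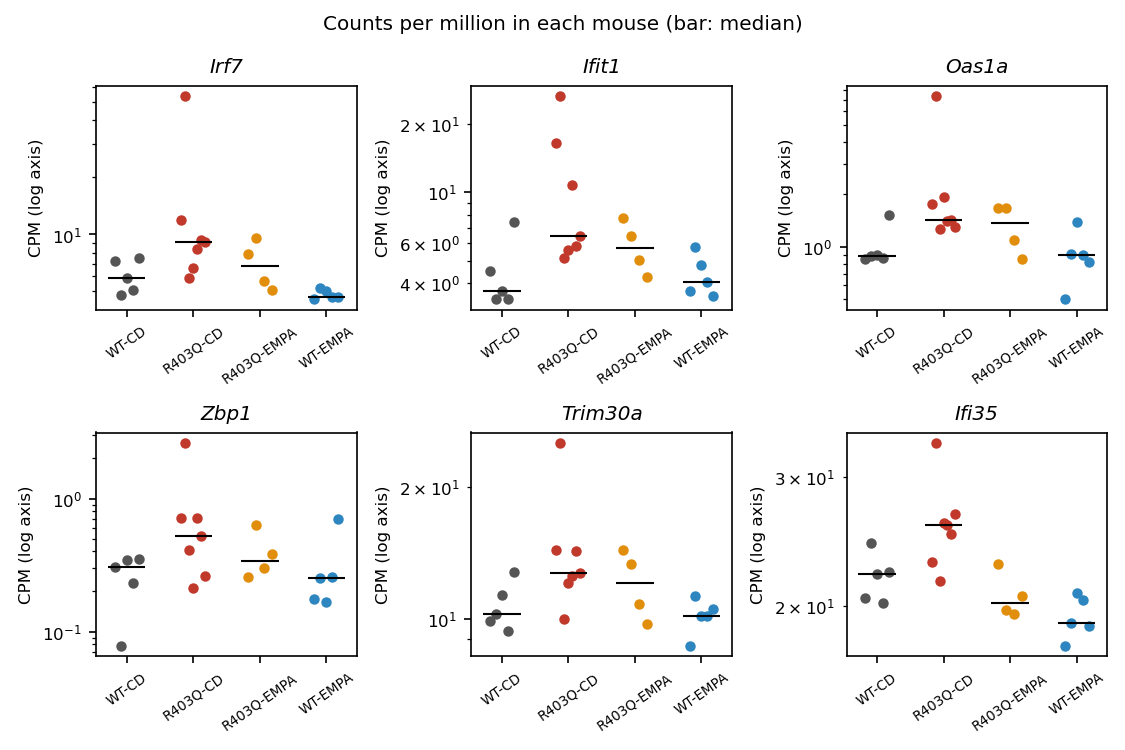
CPM in each mouse (points, log axis) for 6 of the genes in the 4 groups, with the median (black bar). The highest point of all mice is R403Q-CD replicate 2 in each panel, and the R403Q-EMPA median lies between the R403Q-CD and WT-CD medians for Irf7, Ifit1, Oas1a, Zbp1 and Trim30a.

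Among the antiviral effectors 6 of 7 genes had an unadjusted p under 0.05, and without replicate 2 these were 3, Rsad2, Bst2 and Samd9l. Eif2ak2, the gene of the kinase PKR that stops translation on double-stranded RNA, had the highest CPM of this role before correction for length, with 26.1, 25.2, 24.2, 27.5 and 22.7 CPM in WT-CD and 24.5 to 38.04 CPM in R403Q-CD. Its fold change was small at 0.22 ± 0.09, and 0.14 without replicate 2. Mx1 was at 0.170, 0.234, 0.138, 0.166 and 0.299 CPM in WT-CD and ran from 0.194 to 1.49 CPM in R403Q-CD, where replicates 2 and 5 were above 1 CPM. Its log2 fold change of 1.54 ± 0.56 (adjusted p = 0.133, edgeR) rests on a mean in WT-CD that is close to the floor, and was 1.07 without replicate 2. Rsad2, the gene of viperin and singled out after its values were seen, differed little with replicate 2 left out, with log2 fold changes of 0.54 ± 0.16 and 0.47 ± 0.16 with and without it.

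All 6 nucleic acid sensors had an unadjusted p under 0.05, and 4 did without replicate 2, when Dhx58 and Zbp1 did not. Ifi203 was at 28.5, 29.8, 29.1, 27.5 and 39.8 CPM in WT-CD and from 29.7 over a median of 37.1 to 62.3 CPM in R403Q-CD. WT-CD replicate 5 exceeded 6 of the 7 R403Q-CD mice. Zbp1, a sensor of left-handed nucleic acids, had the largest fold change of the 37 genes (1.63 ± 0.57, adjusted p = 0.118, edgeR), from 0.0779 to 0.349 CPM in WT-CD to between 0.213 and 2.63 CPM in R403Q-CD, and without replicate 2 it was 0.86 ± 0.43. Ifi204, a DNA sensor of the same cluster as Ifi203, had a fold change of 0.56 ± 0.15 and of 0.44 ± 0.13 without replicate 2. Ddx58, the gene of RIG-I, and Ifih1, the gene of MDA5, had fold changes of 0.37 and 0.43, and of 0.25 for both without replicate 2.

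The ADP-ribosylation and ubiquitin ligase genes had the smallest median fold change of the roles, 0.29 on the log2 scale, with values from 0.20 to 0.43. All 4 had an unadjusted p under 0.05, with and without replicate 2. Parp14 was at 32.0, 28.1, 26.5, 29.3 and 33.6 CPM in WT-CD and from 30.6 to 40.2 CPM in R403Q-CD, where replicate 1 and not replicate 2 was the highest. Trim30a, which restrains inflammatory signalling, was at 9.87, 10.3, 11.3, 9.39 and 12.8 CPM in WT-CD and ran from 9.98 to 25.3 in R403Q-CD (log2 fold change 0.43 ± 0.17, and 0.23 without replicate 2).

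All 6 of the other interferon-induced genes had an unadjusted p under 0.05, and all but Xaf1 did without replicate 2. Lgals3bp, which encodes a secreted galectin-binding glycoprotein and was singled out after its values were seen, was at 18.4, 21.6, 15.0, 17.8 and 24.1 CPM in WT-CD and from 24.3 over a median of 27.2 to 76.1 CPM in R403Q-CD. It was the single gene of the 37 whose R403Q-CD mice all lay above all WT-CD mice, by a margin of 24.3 against 24.1 CPM, and 1.12% of all genes showed this. Its log2 fold change was 0.82 ± 0.23 (adjusted p = 0.0629, edgeR) and, without replicate 2, 0.48 ± 0.11 (adjusted p = 0.0313, edgeR). Ifi44, also singled out afterwards, ran from 1.996 to 3.92 CPM in WT-CD and from 2.69 to 27.4 CPM in R403Q-CD, with log2 fold changes of 1.59 with and 0.78 without replicate 2.

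Each of the 4 CD cages held mice of both genotypes, so that genotypes could be compared within a cage. In cage order A to D the R403Q mice differed from their WT cage mates by 0.74, 1.68, 0.36 and 0.13 in the mean log2 CPM of the 37 genes. The difference was positive in all 4 cages, and 36, 37, 36 and 29 of the 37 genes were higher in the R403Q mice. In all 4 cages together 27 of the 37 were higher, against 15.2% of all genes tested. With cage as a fixed factor 23 of the 37 genes passed adjustment in edgeR, against 6.52% of all genes, but without R403Q-CD replicate 2, the only mutant mouse of cage B, none did, against 0.204% of all genes, and 20 were higher at an unadjusted p under 0.05, against 6.5%.

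**Figure D4:**
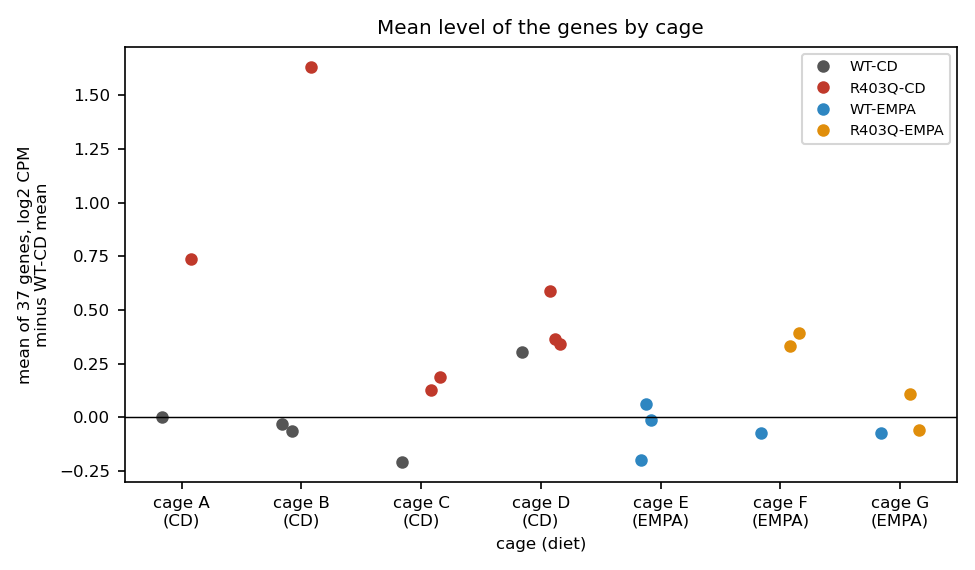
Mean log2 CPM of the 37 tested genes minus the WT-CD mean (y axis) for each mouse, by cage (x axis) and by genotype and diet (color). In each of the 4 CD cages the R403Q mice lie above the WT mice, by 0.13 to 1.68, and cage D holds the highest WT-CD mouse.

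The comparison of R403Q-EMPA with R403Q-CD asks what the drug changed in the mutant. Of the 37 genes, 36 had a lower fitted level in R403Q-EMPA, with a median log2 fold change of -0.46, against 50.8% of all genes below 0. At an unadjusted p under 0.05, 16 genes (43.2%) were lower, against 6.36% of all genes. None passed adjustment in edgeR, where 2 of all genes did (0.0116%). None did in DESeq2, which gave an adjusted p to 35 of the 37 and called 1.05% of all genes. Without R403Q-CD replicate 2 the median was -0.19 and 8 genes were lower at an unadjusted p under 0.05, against 5.47% of all genes. Without replicates 1 and 2 the median was -0.15 and 3 genes were lower, 8.11% of the 37 against 5.85% of all genes. In no gene did all R403Q-CD mice lie above all R403Q-EMPA mice, which 0.664% of all genes showed. The R403Q-CD mice are shared with the comparison above, so that a high R403Q-CD mouse raises the first difference and lowers the second.

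All 4 IFIT genes and 4 of the 6 signalling genes were among the 16. Without R403Q-CD replicate 2 these were 3 IFIT genes, without Ifit1, and Irf9 alone of the signalling genes. Irf7 was at 7.88, 9.61, 5.68 and 5.09 CPM in R403Q-EMPA, within the range of the other 6 R403Q-CD mice for the first pair and below their lowest for the other two (log2 fold change -1.10 ± 0.46, adjusted p = 0.309, edgeR). Without R403Q-CD replicate 2 it was -0.28 ± 0.18. Ifit1 was at 7.73, 6.42, 5.06 and 4.24 CPM, and Oas1a at 1.68, 1.66, 1.09 and 0.849 CPM. The first 2 R403Q-EMPA mice share a cage and were higher than the other 2, which share another. Rsad2 did not follow the rest, with 9.41, 11.0, 11.6 and 9.38 CPM in R403Q-EMPA against a mean of 10.0 CPM in R403Q-CD (log2 fold change 0.04 ± 0.17). Dtx3l and Parp14, at -0.01 and -0.04, also differed little between diets in the mutant.

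The diets were also compared in WT mice, where 3 of the 5 WT-EMPA mice came from 1 cage. The median log2 fold change of WT-EMPA against WT-CD was -0.08, and none of the 37 in edgeR, or of the 35 with an adjusted p in DESeq2, passed adjustment, and the tests called 0.0289% and 0.752% of all genes. Dtx3l was higher (0.16 ± 0.07) and Ifi27 lower (-0.26 ± 0.12) at an unadjusted p under 0.05, and these 2 are 2.70% of the 37 in each direction against 5.94% and 5.08% of all genes. Irf7 was at 4.54, 5.20, 5.05, 4.69 and 4.66 CPM in WT-EMPA, the narrowest range of the 4 groups.

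The genotypes were also compared on EMPA. In R403Q-EMPA against WT-EMPA, 35 of the 37 genes had a fold change above 0, against 51.7% of all genes, with a median of 0.22, beside 0.56 on CD and 0.26 on CD without R403Q-CD replicate 2. Ifi27 (0.36 ± 0.13) and Rsad2 (0.44 ± 0.19) were higher at an unadjusted p under 0.05, 5.41% against 8.14% of all genes. None passed adjustment in edgeR, which called 0.0578% of all genes. The interaction, which is the EMPA effect in the mutant minus that in WT, was below 0 for 36 genes, with a median of -0.35 and -0.09 without R403Q-CD replicate 2. It passed adjustment in edgeR for none of the 37 and for 0% of all genes, and Usp18 alone had an unadjusted p under 0.05 (-1.01 ± 0.48), while 1.82% of all genes were lower at that level. Without R403Q-CD replicate 2 none of the 37 had an unadjusted p under 0.05, and 322 of 17176 genes were lower at that level. The effect of EMPA is therefore not shown to differ between genotypes for these genes.

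Averaged over both genotypes, Ifi35, the gene of an interferon-induced leucine zipper protein, fell with EMPA and was the single gene of the 37 to pass adjustment in any of the 6 comparisons in the edgeR model of 4 groups with TMM scaling, the filter on low counts and no cage term (log2 fold change -0.25 ± 0.06, adjusted p = 0.0392, edgeR). It was at 20.5, 24.4, 22.1, 20.2 and 22.3 CPM in WT-CD and at 17.7, 19.0, 20.9, 20.4 and 18.8 CPM in WT-EMPA. In R403Q-CD it ran from 21.7 over a median of 25.8 to 33.4 CPM, and in R403Q-EMPA it was at 22.9, 19.8, 19.5 and 20.7 CPM. The WT groups and the mutant groups both overlapped between diets. Without R403Q-CD replicate 2 the value was -0.22 ± 0.05 (adjusted p = 0.0196, edgeR), and with cage as a random effect in limma the adjusted p was 0.0942. In this comparison 2.91% of all genes were called. At an unadjusted p under 0.05, 12 of the 37 were lower (32.4%) against 9.41% of all genes, and 35 had a fold change below 0 against 52.4%. Without R403Q-CD replicate 2, 8 were lower (21.6%), against 1760 of 17176 genes, and 31 had a fold change below 0. The median log2 fold change of the 37 was -0.27 with this mouse and -0.15 without it. Leaving out each of the 21 mice in turn kept the call of Ifi35 in 9 fits, with adjusted p-values from 0.0160 to 0.0947 (edgeR). Diets could not be compared within a cage, because each cage received 1 diet, so differences between cages enter this comparison.

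Markers of other cells also moved in the comparison of the diets over both genotypes. All 3 erythroid markers rose with EMPA (adjusted p of 0.0120 to 0.0463, edgeR), with a median log2 fold change of 0.64. Their summed level was 624.9 to 1123 CPM in WT-CD and 777 to 1493 in R403Q-CD, against 1103 to 1769 in WT-EMPA and 1074 to 2349 in R403Q-EMPA. Of 4 neutrophil markers 3 were tested, S100a8 and S100a9 rose (adjusted p = 0.0274 and 0.0299, edgeR), and Csf3r had a log2 fold change of 0.27. The neutrophil sum was 2.23 to 11.1 CPM in WT-CD and 3.81 to 10.1 in R403Q-CD, against 8.28 to 42.0 in WT-EMPA and 5.81 to 28.7 in R403Q-EMPA, and Ly6g was at 0 in every CD mouse and at most at 0.253 CPM on EMPA. Of 5 endothelial markers Kdr rose (0.35, adjusted p = 0.0217, edgeR). No marker of the other 7 lists passed adjustment. The part of these cells in the EMPA comparisons was not tested.

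The other genes of the pathway were taken from lists of 86 genes, of which 75 were tested. None passed adjustment in any comparison in edgeR. Of 10 interferon ligand genes, 8 had no count in any mouse. Ifna2 and Ifng each had 1 count in 1 WT-CD mouse, which is under the floor. Of the 6 receptor genes, Ifngr2 was lower in R403Q-CD than in WT-CD at an unadjusted p under 0.05, and no other differed at that level. Ifnar1 was at 34.0 ± 1.10 CPM in WT-CD (SD, n = 5) and at 36.0 ± 2.08 in R403Q-CD (SD, n = 7), with a log2 fold change of 0.08 ± 0.05. Ifnar2 was at 23.7 ± 1.47 and 25.1 ± 1.40 CPM, and its fold change was 0.09 ± 0.05. Those of Ifngr1, Ifngr2, Ifnlr1 and Il10rb were 0.16, -0.24, -0.31 and -0.14.

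A list of 40 other interferon-stimulated genes had 19 genes that were higher in R403Q-CD at an unadjusted p under 0.05 and none that was lower, with a median log2 fold change of 0.27. Of all genes tested, 11.8% were higher and 9.15% lower. Of 13 upstream sensing genes 4 were higher and 1 lower, and of 6 interferon gamma targets tested 2 were higher. Of the 10 signalling and inhibitor genes 1 was higher and 2 lower. In R403Q-EMPA against R403Q-CD, 7 of the 40 other interferon-stimulated genes were lower and 2 higher, against 6.36% and 7.06% of all genes. The counts and the median of these lists include R403Q-CD replicate 2 and were not taken without it.

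The genes followed each other from mouse to mouse. The Pearson correlation of each gene's log2 CPM with the mean of the other 36 over the 21 mice had a median of 0.90, from 0.58 (Dtx3l) to 0.96 (Ifit3 and Oasl2). Without R403Q-CD replicates 1 and 2 the median was 0.74. Outside the 37, the genes with the highest correlation over the 21 mice were Osbpl9 (0.93), Oas1g (0.93), Rnf115 (0.93), Gbp7 (0.92), Gbp3 (0.92), Rhoc (0.92), Col3a1 (0.91), Ctsk (0.91), Fcrls (0.91) and Anxa5 (0.91). Without R403Q-CD replicates 1 and 2 these values ran from 0.71 (Gbp7) to 0.90 (Rhoc). The mice share a few high values and are therefore not independent points for this description.

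Markers of macrophages were also higher in the mutant mice. The summed level of 8 macrophage markers was 305 to 411 CPM in WT-CD and 422 to 718 in R403Q-CD, where replicate 2 was highest. In R403Q-EMPA it was 487 to 594 CPM, above all WT-CD mice, and in WT-EMPA 264 to 451. Of the 8, Csf1r (log2 fold change 0.45, adjusted p = 0.0254, edgeR) and Adgre1 (0.67, adjusted p = 0.0351, edgeR) rose in R403Q-CD, 7 had an unadjusted p under 0.05 and none was at 0 in any mouse. The mean of the 37 genes was -0.06 to 0.39 in R403Q-EMPA. The part of macrophages in the result was not tested. Fibroblast markers summed to 997 to 1609 CPM in WT-CD and 1335 to 3315 in R403Q-CD, and cardiomyocyte markers, which are defining for this tissue and abundant in all mice, to 60770 to 67970 and 30930 to 61260 CPM, whose part in the result was also not tested. Of 5 dendritic markers 3 were tested, and all 3 had a fold change above 0 in R403Q-CD against WT-CD and below 0 in R403Q-EMPA against R403Q-CD, with none that passed adjustment in edgeR. Itgax was at 1.91 and -1.54 on the log2 scale in these comparisons, and its highest levels were 3.39 CPM in R403Q-CD replicate 2 and 1.53 CPM in replicate 1. The dendritic sum was 1.70 to 2.94 CPM in WT-CD, 2.21 to 6.31 in R403Q-CD, 1.74 to 2.15 in R403Q-EMPA and 1.41 to 2.91 in WT-EMPA, and its part was not tested.

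**Figure D5:**
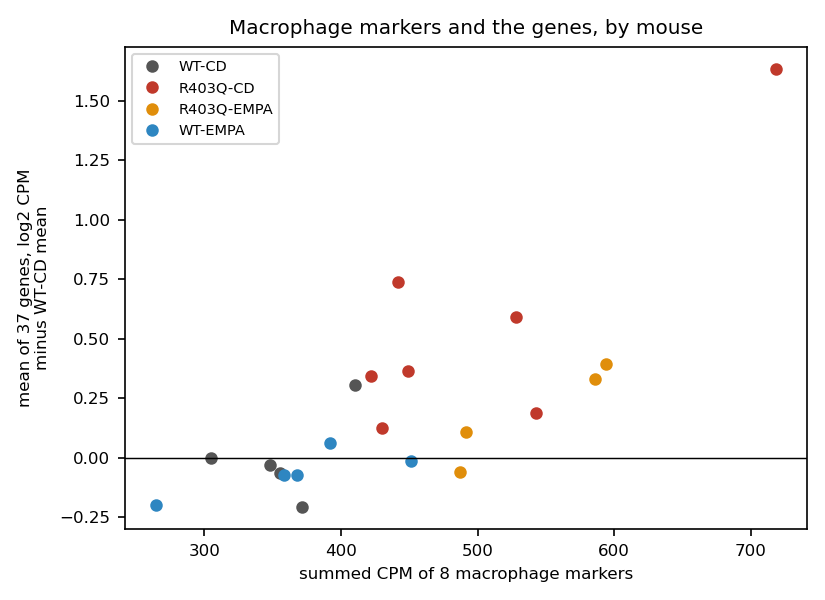
Summed CPM of 8 macrophage markers (x axis) and mean log2 CPM of the 37 tested genes minus the WT-CD mean (y axis) in each of the 21 mice, colored by group. R403Q-EMPA lies at 487 to 594 CPM of the markers with gene means of -0.06 to 0.39, and R403Q-CD replicate 2 is the point at the upper right.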

How the data were processed

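Counts were deposited by the authors: LV RNA was poly(A)-selected, sequenced as paired reads, aligned to mm10 with STAR 2.6.0c, checked with FastQC 0.11.7, and uniquely aligned proper pairs were assigned to non-mitochondrial Ensembl genes with featureCounts of Subread 1.6.2 (names and versions from the submitters' processing notes and the study's methods). The study's methods name the same strand for the counting, but the exact strand setting is not clear from these sources. Overlapping genes on opposite strands are therefore uncertain. The deposited log2 values are variance-stabilized counts made by the authors with DESeq2 1.32.0, and were used for 1 alternative. All value columns were used.

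Groups came from the sample labels. Counts were fitted in R 4.3.3 with edgeR 4.0.16 in a single quasi-likelihood model of 4 groups and 21 mice (TMM scaling, filterByExpr with a minimum count of 10, 17309 genes), with Benjamini-Hochberg adjustment over all of them and a threshold of 0.05. The study's methods used DESeq2's Wald test, here an alternative (DESeq2 1.42.0), besides RLE scaling, library size alone, no filter, limma 3.58.1 on the log2 values, 3 groups without WT-EMPA, cage as a fixed or random factor and leaving out each mouse. Scripts were tested on simulated data. Mean log2 CPM used a prior count of 2. Symbols and positions came from GENCODE M21 (GRCm38), sequences from RefSeq. Replicate numbers only name mice.

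The 38 genes, the gene lists, and the tests were chosen with earlier results of these data known, and the study lists an interferon alpha set among those affected by EMPA, so the direction of the list is not independent evidence. Values per mouse were given for genes that passed adjustment and, in each role with none, for the gene with the highest CPM and that with the largest fold change. Cages are named A to G in the order of their labels.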

Additional observations from a re-analysis of the deposited data

Results flagged for a closer look

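In 156 groups of values (each gene in each of the 4 groups, and the mean of the genes), 37 held a mouse whose gap to the nearest other mouse took up most of the range of its group. The chance rate of about 1 in 20 is for a single group. It does not hold for this count, because the genes followed each other over the same mice. Of these, 25 were in R403Q-CD replicate 2. This mouse was far above the other 6 for Irf7 53.7, Irf9 32.0, Stat2 27.4, Usp18 8.94, Isg15 10.7, Ifit3 42.0, Oas1a 7.33, Oas2 18.5, Oas3 1.08, Oasl1 6.29, Oasl2 28.4 and Mx2 6.91 CPM, and also for Bst2 22.4, Ddx58 29.5, Ifih1 18.5, Dhx58 5.92, Zbp1 2.63, Ifi203 62.3, Trim30a 25.3, Ifi35 33.4, Ifi44 27.4, Xaf1 67.9, Rtp4 19.2 and Lgals3bp 76.1 CPM. Its mean of the 37 genes, 1.63 on the log2 scale above the WT-CD mean, stood apart in the same way. It also had the lowest Myh6 and the highest Nppa, Col1a1 and macrophage markers of all mice, and no value here tells these apart.

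WT-CD replicate 5, in the cage of 3 R403Q mice, stood above the other 4 WT-CD mice for Usp18 2.57, Ifit1 7.46, Oas1a 1.52, Cmpk2 8.05, Ifih1 9.43, Ifi203 39.8 and Ifi44 3.92 CPM. Single mice stood apart for Sp100 in R403Q-EMPA replicate 1 (33.6 CPM, high), Mx2 in WT-CD replicate 4 (1.17 CPM, low), Samd9l in WT-EMPA replicate 2 (23.6 CPM, high), Zbp1 in WT-EMPA replicate 5 (0.702 CPM, high) and Ifi204 in WT-EMPA replicate 1 (13.6 CPM, low).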

How the results depend on the processing

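In R403Q-CD against WT-CD all 37 genes kept a fold change above 0 in all 23 alternatives. The number that passed adjustment was 0 with all mice in edgeR, 4 with library size alone, 2 without the filter, 12 in DESeq2, 23 with cage as a fixed factor and 1 with cage as a random effect. Over all genes these counts were 250, 352, 248, 970, 1128 and 475, and library size alone put 66.5% of all genes above 0. Leaving out 1 mouse gave from 0 to 17 genes (17 without R403Q-CD replicate 3, 5 without replicate 4 or 6, 2 without replicate 7 or WT-CD replicate 5, 1 without replicate 2), from 25 to 37 at an unadjusted p under 0.05, and medians from 0.26 to 0.63. Over all genes these fits called from 31 to 1045. The 1045 were without R403Q-CD replicate 3, and without replicates 4, 6, 7 and 2 in turn it was 227, 358, 289 and 243. Without WT-CD replicate 5 it was 238. The following alternatives were chosen after seeing the data: without R403Q-CD replicates 1 and 2, 1 gene passed and 19 had an unadjusted p under 0.05, with cage and without replicate 2 it was 20 of the latter, and DESeq2 without replicate 2 called 7. In R403Q-EMPA against R403Q-CD no alternative gave a gene that passed, and the 16 genes at an unadjusted p under 0.05 became 10 with cage as a random effect, 7 to 21 when 1 mouse was left out (7 without R403Q-EMPA replicate 3 or 4), 8 in DESeq2 without R403Q-CD replicate 2 and 3 without replicates 1 and 2. For EMPA averaged over genotypes 0 genes passed with library size alone, without the filter or with cage as a random effect, 3 passed in DESeq2 without R403Q-CD replicate 2, and leaving out 1 mouse gave 0 to 2. Over all genes these fits called 471, 314, 113 and 1222, the last of 17159 genes tested, and leaving out 1 mouse called 122 to 929. The call of Ifi35 was lost without WT-CD replicate 2, 3 or 5, WT-EMPA replicate 1, 2 or 5, R403Q-CD replicate 4, 5 or 7, or R403Q-EMPA replicate 2, 3 or 4. The 12 genes at an unadjusted p under 0.05 became 7 in limma, 5 with cage as a random effect, 6 without R403Q-CD replicates 1 and 2, and 6 to 15 when 1 mouse was left out. The median of WT-EMPA against WT-CD ran from -0.13 to 0.01 when 1 mouse was left out. The cause of these changes was not tested. The labels number no replicates, so mice were not paired, and cage served as the block within a diet. At these depths only Oas3, Mx1 and Zbp1 had mice near the floor of 3 counts.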
